A study of Mus musculus with 2 samples.

Results

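Dental epithelial stem cell markers were followed on expression arrays of the mouse incisor's cervical loop (CL), its growing end, in WT mice and in mice lacking Med1 in the epithelium. The markers were 10 genes, chosen by name: Sox2, Sox9, Lgr5, Lgr6, Lrig1, Bmi1, Igfbp5, Abcg2, Sfrp5 and Pknox2. All 10 were on the array, with 15 probes of the 25697 measured, taken by the gene symbol of the platform annotation. Both groups were C57BL/6 mice of 10 weeks with floxed Med1 alleles (MED1 fl/fl). The KO also carried K14Cre, in which keratin 14 regulatory sequence drives Cre in basal epithelial cells and not in mesenchyme, vessels or blood. The controls, labelled WT, therefore had the floxed alleles and lacked Cre. Each sample pooled lower incisor tissue of 3 mice, and each genotype has a single column of values, referred to as its array. The series' design text gives 3 per genotype, and the sources used here do not say whether a column is 1 array or a mean. The titles and the stage name the CL for both samples, while the general dissection note speaks of tissue that produced hairs in the KO and its counterpart in WT. The sex of the mice is not given. With 1 value per genotype there was no error between animals, and no test between genotypes was made.

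The labial CL holds a reserve of epithelial stem cells from which the enamel-forming layers of the rodent incisor are renewed as the tooth wears. Sox2, an SRY-box transcription factor, is the classical marker of these cells, and the other markers were taken from this niche or from epithelial stem cells of the hair follicle and gut. They act at different levels: transcription factors (Sox2, Sox9, Pknox2), a chromatin repressor (Bmi1), receptors and a receptor antagonist at the membrane (Lgr5, Lgr6, Lrig1), a transporter (Abcg2) and secreted proteins that bind growth factors (Igfbp5, Sfrp5). MED1 belongs to Mediator, which relays the action of transcription factors to RNA polymerase II.

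Of the 15 probes, 5 were detected on both arrays and 10 on neither. A probe was called detected when its detection p-value, the authors' measure of how far it lies above negative control probes, was under 0.01. The detected genes were Lrig1, Sfrp5, Sox9, Igfbp5 and Bmi1, each with 1 probe on the array. Sox2, Lgr5, Lgr6, Abcg2 and Pknox2 had no detected probe. Of all 16593 named genes on the array, 7711 (46.5%) were detected on both arrays, so 5 of 10 markers is near the share of genes in general. The leading marker Sox2 was not well above background in either genotype. Of the 5 detected genes, 4 had a KO to WT ratio below 0 on the log2 scale, Lrig1 the furthest, and Bmi1 lay within 0.02 of WT.

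**Figure D1:**
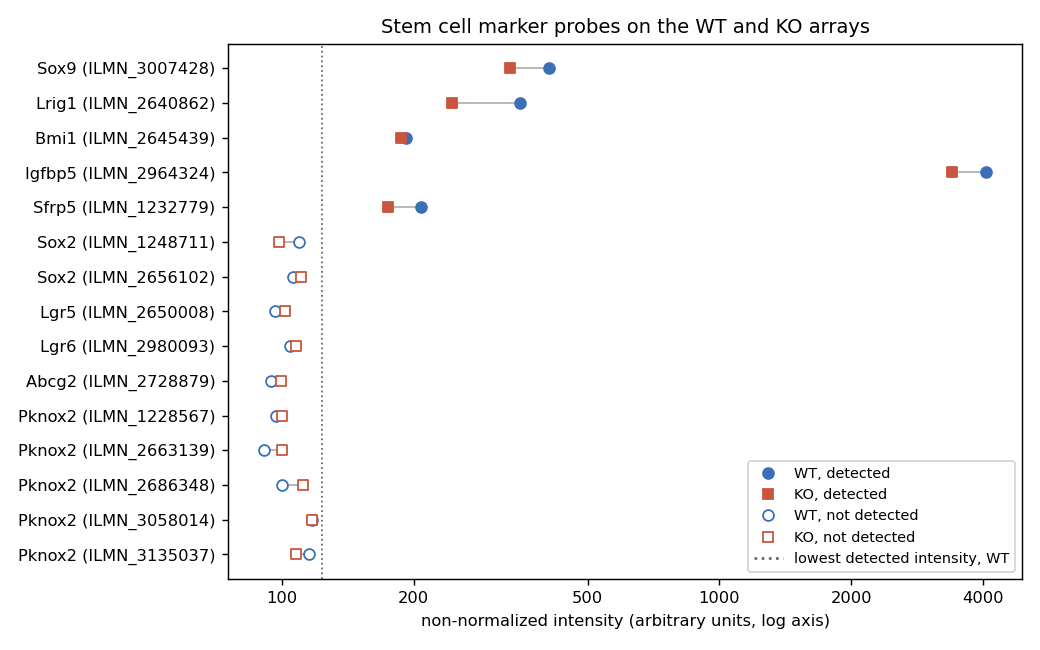
Non-normalized intensity (log axis) of each marker probe on the WT array (circles) and the KO array (squares), with filled symbols for a detection p under 0.01. The probes of Sox9, Lrig1, Bmi1, Igfbp5 and Sfrp5 were detected on both arrays, and the other 10 probes lay below 123.5, the lowest detected intensity in WT (dotted line). Positions of different probes are not comparable as amounts of RNA.

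The regions upstream of the transcription start are shown for the 2 markers with the lowest ratios, Lrig1 and Sfrp5, and for Bmi1, whose ratio was nearest to 0, since Mediator acts at promoters. They are the 250 bases before the start in RefSeq on GRCm38.p6, written in the direction of transcription. Capitals mark the GC box of Sp1 (GGGCGG, searched on both strands, overlapping matches counted). The Lrig1 window lies at chr6:94700146-94700395 on the minus strand, that of Sfrp5 at chr19:42202253-42202502 on the minus strand and that of Bmi1 at chr2:18676768-18677017 on the plus strand.
Lrig1: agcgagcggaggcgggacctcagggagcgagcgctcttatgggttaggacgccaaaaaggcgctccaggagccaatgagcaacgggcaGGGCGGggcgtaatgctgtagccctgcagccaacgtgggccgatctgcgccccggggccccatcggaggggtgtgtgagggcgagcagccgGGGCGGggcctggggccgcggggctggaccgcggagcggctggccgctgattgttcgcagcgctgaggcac
Sfrp5: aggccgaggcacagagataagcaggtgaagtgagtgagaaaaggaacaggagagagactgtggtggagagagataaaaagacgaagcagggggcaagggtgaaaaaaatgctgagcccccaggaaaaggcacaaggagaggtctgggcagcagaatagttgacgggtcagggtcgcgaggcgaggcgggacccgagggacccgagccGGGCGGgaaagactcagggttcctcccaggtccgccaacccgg
Bmi1: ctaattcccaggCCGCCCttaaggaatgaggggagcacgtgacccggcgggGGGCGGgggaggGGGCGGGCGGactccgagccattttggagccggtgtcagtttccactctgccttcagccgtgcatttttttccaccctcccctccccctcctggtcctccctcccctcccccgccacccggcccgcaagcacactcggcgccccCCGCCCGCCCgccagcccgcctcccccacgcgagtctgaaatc
The Lrig1 window held 26 CpG and 71.6% G+C with 2 GC boxes, the Sfrp5 window 13 CpG and 59.6% with 1, and the Bmi1 window 21 CpG and 70.4% with 6. Over all 32851 windows of this length the medians were 6 CpG and 52.4% G+C, and 32.7% held a GC box. The TATA box (TATAAA, in 12.4% of all windows), the Rbpj core of Notch signaling (GTGGGAA, 5.42%), the Tcf and Lef core of Wnt signaling (CTTTGA, 13.8%) and the Gli core of hedgehog signaling (GACCACCC, 0.703%) had no match in these 3 windows. These matches describe the letters of the windows, and the arrays did not measure binding.

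Med1 itself was examined first, as the check of the genotype labels. It had 4 probes, of which 1 was detected, with an intensity of 245.9 in WT and 172.9 in KO. After background correction and quantile normalization the log2 ratio of KO to WT was -0.80, a 1.74-fold lower value, or 57.4% of WT. The ratio was -0.46, short of 1.5-fold, when no background was corrected and likewise in the authors' normalized values. The lower value of the detected probe was thus on the array labelled KO. Another probe, ILMN_3106388, fell just short of detection, at 119.6 in WT and 122.1 in KO with a detection p-value of 0.01253 on each. Its log2 values were 5.12 and 5.11, so it showed no lower value in KO. Which exons the probes cover was not known here, so they need not lie in the deleted part. The tissue also held cells that do not express keratin 14.

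Lrig1 encodes a transmembrane protein with leucine-rich repeats that dampens signaling by ErbB receptors, and it marks stem cells in skin and intestine. Its probe (ILMN_2640862) read 350.3 in WT and 245.2 in KO. On the normalized log2 scale these were 7.98 and 7.37, a ratio of -0.62 and a 1.54-fold lower value in KO, 65.1% of WT. Of all 10656 probes detected on both arrays, 183 (1.72%) had a ratio as low or lower. Lrig1 was the 1 marker of 5 past 1.5-fold, and no marker was higher by that much. Over all probes detected on both arrays, 2.09% were lower by 1.5-fold or more and 1.75% were higher. These were 223 and 186 probes, and median scaling in place of quantiles gave 438 lower and 91 higher. The excess of Lrig1 over the limit was small: its ratio was -0.53 with a larger offset of 50, and -0.44 in the normalized intensity deposited by the authors (339.5 and 251.1), both short of 1.5-fold.

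Sfrp5 encodes a secreted frizzled-related protein that binds Wnt ligands outside the cell. Its probe (ILMN_1232779) read 208.0 in WT and 175.3 in KO, and the log2 values were 6.89 and 6.52. The ratio was -0.37, a 1.29-fold lower value in KO, and 7.78% of all probes lay as low or lower. Without background correction the ratio was -0.20.

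Sox9 encodes an SRY-box factor of the outer root sheath and bulge of the hair follicle and of cartilage. Its probe (ILMN_3007428) read 408.5 in WT and 332.6 in KO, with log2 values of 8.26 and 8.01. The ratio was -0.25, a 1.19-fold lower value, and 15.3% of all probes were as low or lower. Sox9 had been named in the study's text from these same samples, so it is not independent evidence for the direction of the markers. All the markers were chosen with earlier results of these data known, so leaving out Sox9 does not make the others independent. Since Sox9 is also a cartilage gene, 10 chondrocyte genes were read beside it: 3 were detected on both arrays, Col9a2 at -0.20, Col11a1 at -0.19 and Acan at -0.06, and Col2a1, the main collagen of cartilage, was detected on neither. The summed normalized intensity of those 3 was 1883 in WT and 1674 in KO, mostly from Col9a2. Acan and Col11a1 were weakly detected, at -0.03 and -0.06 in the authors' normalized values. Comp, detected on 1 array, was at 0.31. The part of cartilage in the Sox9 ratio was not tested.

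Igfbp5, a secreted protein that binds insulin-like growth factors, read 4076.6 in WT and 3410.2 in KO (ILMN_2964324). Quantile normalization brought these to 11.87 and 11.79 on the log2 scale, a ratio of -0.07. Bmi1, the subunit of Polycomb repressive complex 1 that represses the Cdkn2a locus, read 191.9 in WT and 187.4 in KO (ILMN_2645439). Its log2 values were 6.68 and 6.70, a ratio of 0.02. Both ratios were smaller than 0.22, the SD per probe of ratios between probes of the same gene.

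**Figure D2:**
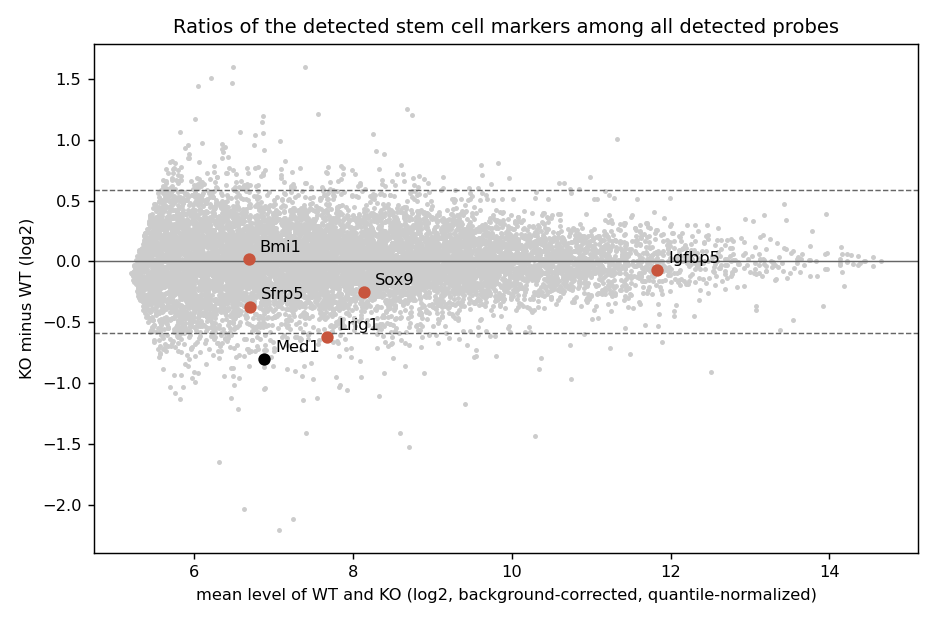
Ratio of KO to WT (log2) against the mean level of both arrays (log2) for the 10656 probes detected on both (grey), with the 5 detected markers in red and Med1 in black. Dashed lines mark 1.5-fold, and Lrig1, at -0.62, is the marker past the lower line.

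That SD was taken from 1791 genes with at least 2 detected probes. The ratios of their 2 brightest probes differed by a median of 0.19 and by up to 0.63 at the 95th percentile. The ratios of Lrig1, Sfrp5 and Sox9 were larger in size than the SD of 0.22. That SD is pooled over probes of all intensities and is not a limit of error. Many ratios passed it, since 15.3% of all probes were as low as Sox9 or lower. The 0.63 is a difference between 2 ratios, so single ratios were not set against it. The spread between probes covers probe error and transcript differences, and holds nothing of the variation between animals.

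The median ratio of the 5 detected markers was -0.25, with 4 of 5 below 0. Over the 7711 genes detected on both arrays the median was -0.01, with 50.9% below 0. The central 95% of all probe ratios ran from -0.56 to 0.53, and of the markers Lrig1 lay outside it. Without Sox9 the median of the other 4 was -0.22, with 3 below 0. In RNA of a bulk tissue, fewer cells of a type and less RNA per cell cannot be told apart, which holds for each of these genes.

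**Figure D3:**
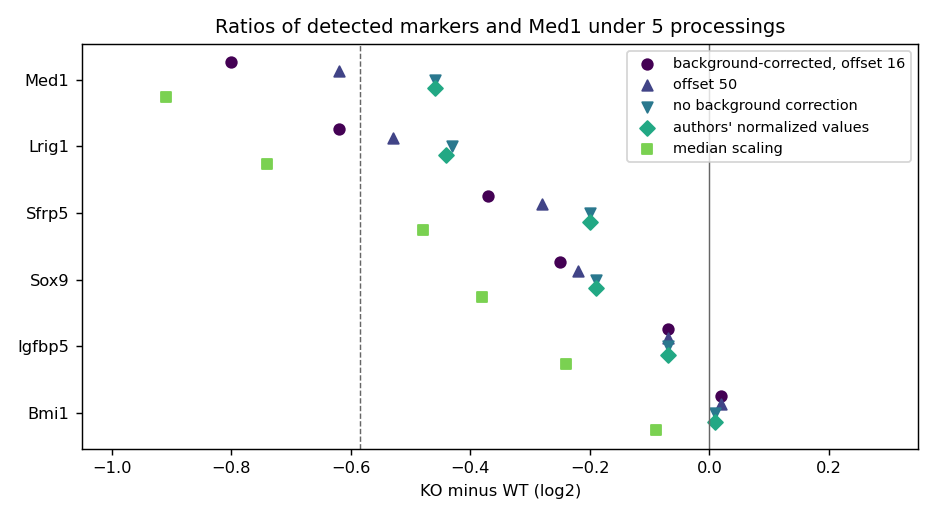
Ratio of KO to WT (log2) of Med1 and the 5 detected markers under 5 ways of processing (symbols), with 0 (solid line) and 1.5-fold lower (dashed line). Lrig1, Sfrp5, Sox9 and Igfbp5 stayed below 0 under each, and Bmi1 moved from 0.02 to -0.09 with median scaling. Apart from median scaling, the processings keep the order of probes on each array, so a sign could hardly differ between them.

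The 10 probes not detected gave no ratio, because both values lay at background. Their intensities ran from 91.0 to 117.5 in WT and from 98.5 to 117.1 in KO, against medians of 101.0 and 104.6 over all probes detected on neither array. The lowest detected intensity was 123.5 in WT and 123.1 in KO. Of the 10 probes, 7 read higher in KO before normalization and 5 did so in the authors' normalized values, so no direction is given.

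Sox2 had 2 probes. ILMN_1248711 read 109.3 in WT and 98.5 in KO, with detection p-values of 0.07393 and 0.84211. ILMN_2656102 read 105.9 in WT and 110.8 in KO, with detection p-values of 0.14286 and 0.11654. The 2 probes thus moved in opposite directions within the background. These arrays did not measure a level of Sox2 in either genotype, which says nothing about the Sox2 protein or about cells that are few in the tissue.

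The R-spondin receptors Lgr5 and Lgr6, which strengthen Wnt signaling, had 1 probe each. The Lgr5 probe read 96.3 in WT and 101.9 in KO, with detection p-values of 0.71554 and 0.59023. The Lgr6 probe read 104.2 and 107.6, with detection p-values of 0.21178 and 0.21053. Neither stood above the negative controls. Abcg2, the efflux transporter that gives stem cells their side population phenotype in dye assays, read 94.6 in WT and 99.5 in KO, with detection p-values of 0.83835 and 0.77945.

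Pknox2, a homeodomain factor of the TALE class, had 5 probes. ILMN_3058014 came closest to detection, at 117.5 in WT and 117.1 in KO with detection p-values of 0.01504 and 0.02632. ILMN_3135037 read 115.2 and 107.5, with detection p-values of 0.02506 and 0.21554. ILMN_1228567 read 97.2 in WT and 99.9 in KO, ILMN_2686348 read 99.9 and 112.0, and ILMN_2663139 had the lowest WT value of all marker probes, 91.0. With the looser limit of 0.05, Pknox2 joined the detected markers through ILMN_3058014, with a ratio of -0.15.

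The families and partners of the markers were read next, each gene by its brightest detected probe. Median scaling in place of quantiles shifted the median of all genes to -0.14 and turned the sign of 3 of 24 group medians, which are named where they are given. Sfrp5 was read within a group of secreted Wnt antagonists, made up of its own family, Wif1 and the Dkk genes. Of these 9 genes, 6 were detected and all 6 were below 0 by the brightest probe, Sfrp5 included. The median was -0.36, or -0.21 in the authors' normalized values. Wif1, which binds Wnt proteins directly, read 777.8 in WT and 412.0 in KO, a ratio of -0.92 and the 1 gene of the group past 1.5-fold. Sfrp2 followed at -0.55, from 1373.2 to 856.8. Frzb was at -0.10, and Dkk3 was at -0.24 by its brightest probe and 0.36 by another. Sfrp1 was not detected on either array.

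For the Lgr receptors the ligands were partly measured. Rspo2 had a ratio of -0.32 (173.1 in WT and 153.3 in KO) and Rspo4 of -0.24 (851.7 and 657.5). Znrf3 and Rnf43, the membrane ligases that R-spondins inhibit, were detected on neither array. Thus 2 of the 8 genes of this group on the array gave a ratio, both below 0.

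Beside Lrig1, its relative Lrig3 had a ratio of -0.19 (1198.9 in WT and 945.7 in KO). The ErbB receptor Egfr, whose signaling Lrig1 restrains, was at -0.26, and its second detected probe was at -0.44. Ret, another receptor tyrosine kinase, was at 0.05. The median of the 4 detected genes was -0.23, and Lrig1 was the 1 past 1.5-fold.

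Of the relatives of Sox9 and Sox2, Sox21, a SoxB factor of the enamel organ and hair, read 2366.5 in WT and 2657.8 in KO, a ratio of 0.34. Another of its probes gave -0.15, so the probes of Sox21 differed in direction. Sox1, Sox3 and Sox8 were not detected.

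Polycomb repressive complex 1, the partner of Bmi1, had 12 of 15 genes detected, 6 above 0 and 6 below, with a median of -0.03. Cbx7, a subunit that reads methylated histone H3, was at -0.88 (208.9 in WT and 150.5 in KO) and at -0.44 in the authors' normalized values. Ring1, the ubiquitin ligase, was at -0.41, while Cbx8 and Pcgf3 were at 0.23 and 0.20. Among cell cycle inhibitors, Cdkn2a was not detected. Cdkn2b was at 0.52 and Cdkn1a at 0.32, and 2 further probes of Cdkn1a gave 0.60 and 0.54. Cdkn2b was weakly detected, and in the authors' normalized values it was at 0.20, against 0.31 for Cdkn1a. Cdkn1c was at -0.04, and Cdkn2c was at -0.09 by its brightest probe and 0.24 by another.

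The insulin-like growth factor axis of Igfbp5 had 10 of 11 genes detected, 8 of them below 0, with a median of -0.12. Igfbp2 was the 1 past 1.5-fold, at -0.82 (466.3 in WT and 282.8 in KO) and -0.64 by its second probe. Igfbp3 was at -0.41, from 3060.3 to 2075.8. Igfbp6 and Igfbp7 were at 0.02 and 0.19. Igfbp5 itself, at -0.07, was thus among the genes of its family with small ratios.

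The TALE factors related to Pknox2 had 6 of 9 genes detected, 3 on each side of 0, with a median of -0.04. Pknox1 was at 0.55 and its other probe at 0.46, and Meis1 was at -0.50. Tgif2 was at 0.25 and Tgif1 at -0.26. The authors' normalized values gave smaller ratios: 0.27 for Pknox1, -0.23 for Meis1, 0.09 for Tgif2 and -0.14 for Tgif1. Of the transporters beside Abcg2, Abcg5 was at -0.36, Abcg8 at -0.09 and Abcg4 at 0.10.

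**Figure D4:**
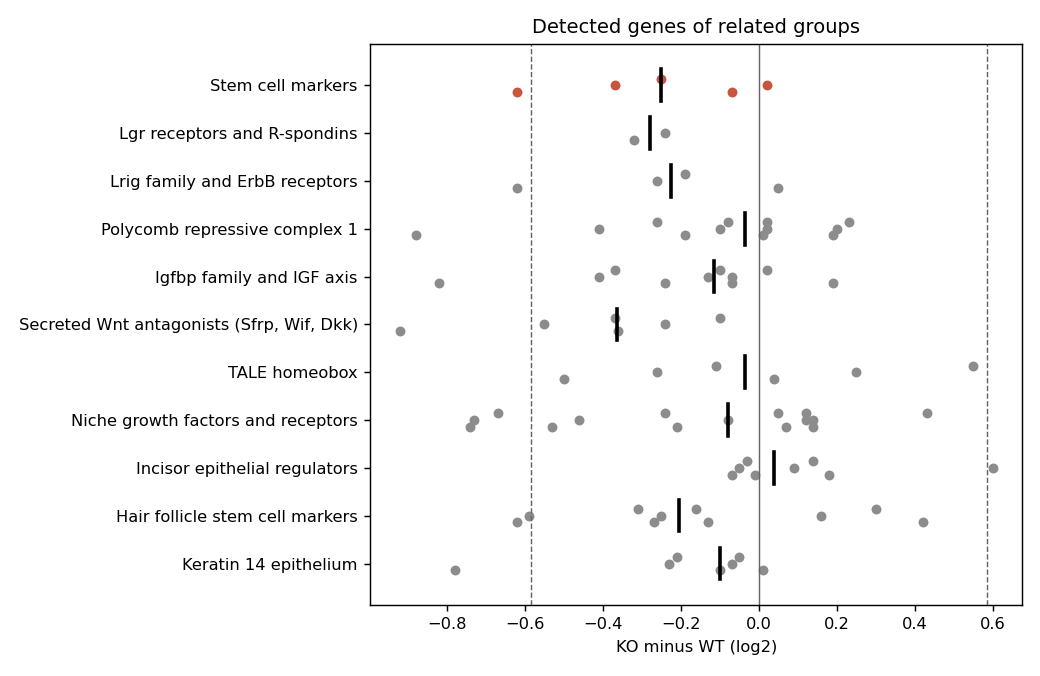
Ratio of KO to WT (log2) of each gene detected on both arrays (points) in the stem cell markers (red) and related groups (grey), with the median of each group as a black bar and 1.5-fold as dashed lines. The markers' median is -0.25, that of the secreted Wnt antagonists -0.36, and that of Polycomb repressive complex 1 -0.03.

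Signals that maintain the CL niche come largely from the mesenchyme around it. Of the niche growth factors and receptors, 15 of 16 were detected, 7 above 0 and 8 below, with a median of -0.08 and 3 lower by 1.5-fold or more. Fgf9 was at -0.74 (160.9 in WT and 131.1 in KO) and Fgf7 at -0.73 (193.7 and 148.5). The third was Shh, the ligand of differentiating incisor epithelium, which read 5123.9 in WT and 2927.1 in KO, a ratio of -0.67, and was named because it completed that count. In the authors' normalized values Shh stayed past 1.5-fold, at -0.65, while Fgf9 and Fgf7 did not, at -0.29 and -0.36. Tgfb2 was at 0.43 and Tgfb1 at 0.14. Of the feedback genes of FGF and hedgehog signaling, 4 were detected on both arrays and these 4 were below 0, with a median of -0.34. The median was -0.11 with either looser detection rule, which added Ptch1 at 0.15 (detection p under 0.05) or Spry4 at 0.68 (detected on 1 array), and -0.22 as the mean over probes. Hhip, a hedgehog target that binds its ligand, was at -0.79, and at -0.38 in the authors' normalized values, short of 1.5-fold. Dusp6, a target of FGF signaling, was at -0.57, and its other probes gave 0.00 and -0.42. Etv4 and Etv5 were at -0.11 and -0.05. Gli1 and Ptch1, direct hedgehog targets, were detected on neither array at the limit of 0.01.

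Other markers proposed for incisor or hair follicle stem cells were mixed. Of 6 detected further incisor markers, 3 lay above 0 and 3 below, with a median of 0.01, or -0.13 with median scaling. Acta2 was at -0.48 and Vat1l at -0.47, against 0.23 for Cd44 and 0.16 for Cd34. Further probes of Acta2 gave -0.97 and -0.44, and the mean over its detected probes was -0.48. Acta2 (14813.3 in WT and 9734.4 in KO) was also counted with the smooth muscle and pericyte genes given below, so it is not particular to stem cells. The hair follicle markers, which include Lrig1 and Sox9, had 7 of 10 below 0 and a median of -0.20. Beside Lrig1, the quiescence factor Foxc1 was at -0.59 (188.2 in WT and 151.6 in KO) and at -0.28 in the authors' normalized values, while Vdr and Col17a1 were at 0.42 and 0.30. The transcription factors and adhesion genes of the incisor epithelium had a median of 0.04, or -0.07 with median scaling and -0.04 as the mean over probes, with 1 of 8 past 1.5-fold, Sp6 at 0.60. Its other probes gave 0.08 and 0.21. Isl1 was at 0.18, Trp63 at -0.07 and Cdh1 at -0.05.

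The makeup of the samples was read from markers of cell types that the dissection could hold. The summed intensities add probes that are not comparable as amounts of RNA, and the brightest genes weigh most in them. They are therefore no measure of the share of a cell type. Keratin 14 epithelium, the compartment of the stem cells, had a median of -0.10 over 7 detected genes, and its summed intensity was 25981 in WT and 24735 in KO. Krt14 was at 0.01, Cdh1 at -0.05, Krt5 at -0.23 and Krt18 at -0.78, or -0.33 in the authors' normalized values. The 5 ameloblast genes had a median of -0.08, with Amelx at 0.00, Mmp20 at 0.41, Enam at -0.10 and Klk4 at -0.32. Klk4 was weakly detected (132.6 in WT and 124.9 in KO) and was at -0.11 in the authors' normalized values. The sums of the 5 genes were 40560 and 39570. A second probe of Enam gave -0.71. In dental mesenchyme and odontoblast the median was 0.14 and the sums were 14586 and 16203, with Vim at 0.60, Msx1 at 0.30, Col1a1 at 0.00 and Thy1 at -0.30. Dspp and Dmp1 of odontoblasts were not detected.

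Genes of other cell types also differed between the arrays. All 8 detected neutrophil genes were higher in KO, 7 of them by 1.5-fold or more, with a median of 1.10 and sums of 3440 and 6490. Lcn2 was at 1.59, Retnlg at 1.60, Camp at 0.91 and Mpo at 0.39, and Mmp8 was detected on neither array. Smooth muscle and pericyte genes were below 0 in 7 of 8, with a median of -0.28, or -0.17 in the authors' normalized values. Their sums of 16020 and 11809 came mostly from Acta2. Myh11 was at -0.59 and Tagln at -0.58, against -0.16 for Pdgfrb and 0.30 for Des. Endothelial genes had a median of -0.26 with sums of 7040 and 5746, with Vwf at -0.78, Tek at -0.47, Robo4 at -0.11 and Cdh5 at 0.00. Schwann cell genes had a median of -0.34 with sums of 2060 and 1663, and S100b was not detected. Pmp22 was at -0.59, Mbp at -0.46, Ngfr at -0.21 and Cnp at 0.18, and second probes gave -0.14 for Pmp22, -0.04 for Mbp and -0.14 for Cnp. Skeletal muscle had a median of 0.30, or 0.19 in the authors' normalized values, with sums of 1974 and 2375. Mb was at 0.77, Myl1 at 0.50, Tnni2 at -0.10 and Actn3 at -0.60, or -0.22 in the authors' normalized values for Actn3. Erythroid genes had a median of -0.37 with sums of 18266 and 14324, mostly from Hba-a1. Hba-a1 was at -0.37, Alas2 at -0.53 and Slc4a1 at 0.42.

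Immediate-early genes, which respond to handling of tissue as well as to growth factors, had a median of -0.40, with 3 of 7 lower by 1.5-fold or more. Fos was at -2.11 (418.4 in WT and 158.3 in KO) and Egr1 at -1.43, against -0.37 for Junb and 0.03 for Egr2. Proliferation genes had a median of 0.12, or -0.05 with median scaling, and ran from -0.10 for Mcm5 to 0.22 for Cdk1, with Birc5 at 0.11 and Mcm2 at 0.18. The part of these differences in the ratios of Lrig1, Sfrp5 and Sox9 was not tested.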

How the data were processed

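Illumina MouseRef-8 v2 bead arrays measured total RNA of 1 WT and 1 KO sample. The authors read them in GenomeStudio and deposited a linear intensity per probe, without background subtraction or normalization, and beside it a detection p-value. A second intensity table deposited by the authors matched quantile normalization of the first to within 2.1 units in WT and 1.43 in KO. Median non-normalized intensity was 112.4 in WT and 115.7 in KO. The detection p-value columns name no sample and were assigned to the intensity column before each.

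The intensities were processed with neqc of limma (version 3.58.1, R 4.3.3), which corrects background by a normexp model, infers control levels from the detection p-values, uses an offset of 16 and gives quantile-normalized log2 values. Ratios are KO minus WT. A probe entered counts and medians when its detection p was under 0.01 on both arrays, and a gene was represented by its brightest such probe. Of 25697 probes, 23978 had 1 gene symbol and 1719 none. Of 277 list entries, 246 matched the array, 1 through an older symbol in a RefSeq table. The pipeline was checked on simulated arrays with known folds placed in the brighter detected probes only, so ratios of weaker probes were not checked there. With 1 sample per genotype, genes were counted by fold size only, and precision is limited by the number of arrays.

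The markers and the 27 gene lists were chosen with earlier results of these data known, and the sequence motifs after the files had been read. In each list up to 2 of the highest and 2 of the lowest ratios are named, and other genes were chosen after their values were seen. Upstream sequences are from RefSeq, in which 7 of the 10 markers had a window. Alternatives were the authors' normalized values, no background correction, an offset of 50, median scaling, a detection limit of 0.05, detection on at least 1 array, the mean over probes, and leaving out Sox9.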

Additional observations from a re-analysis of the deposited data

How the results depend on the processing

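Lrig1, Sfrp5, Sox9 and Igfbp5 stayed below 0 with the authors' normalized values, no background correction, an offset of 50 and median scaling. The first pair are nearly the same setting. Apart from median scaling, these keep the order of probes on each array before quantile normalization, so they could hardly turn a sign. Median scaling could, but it lowered ratios in general, so the signs below 0 say little about stability. The detection and probe rules could not change the ratios of these genes, since each has 1 probe that was detected on both arrays. The size was not stable: Lrig1 was past 1.5-fold with the offset of 16 and with median scaling (-0.74), and short of it with the authors' normalized values (-0.44), no background correction (-0.43) and an offset of 50 (-0.53). Median scaling moved all genes by a median of -0.14, put 72.3% of them below 0, brought the median of the markers to -0.38 and turned Bmi1 to -0.09. Probes past 1.5-fold numbered 409, and 69 with the authors' normalized values, 69 without background correction, 153 with the larger offset and 738 with detection on at least 1 array. Past 2-fold there were 41, and 9, 9, 16 and 75 in the same order. Of the medians of 24 related groups, median scaling turned the sign of 3 and the authors' normalized values of 0. The authors' normalized values could hardly turn the sign of a single gene, so that 0 says little. Low signal left 5 of 10 markers with no ratio. No paired analysis was possible because each genotype has 1 sample, and no replicate could be left out.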
